A study of Homo sapiens with 8 samples.

Results

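Zinc finger genes with a ZNF number in their symbol and a place outside chromosome 19 were followed through the m6A peak lists of 2 human osteosarcoma cell lines. They were chosen by name and position alone, as every listed peak whose gene symbol begins with ZNF and a digit and whose chromosome is not 19. The rule found 193 genes of the 8758 with a peak, with 3593 of 130622 listed peaks. The rule used no measured value. The cells were U2OS and 143B, grown in DMEM with serum and infected with lentivirus that carries a short hairpin RNA. The hairpin was directed against METTL14 (shMETTL14) or was a control (NC), and all 4 groups therefore carry a lentiviral hairpin. Each group has 1 input library of total RNA and 1 library enriched with an anti-m6A antibody, 8 libraries in all, and each enriched library has 1 peak list. The hairpins' sequences, the time after infection and whether lines were clones or pools are not given in the labels. As there is 1 list for each group, replicate spread is unknown for every comparison, and a difference between lists cannot be told apart from a difference between libraries.

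N6-methyladenosine (m6A) is the most common internal mark of messenger RNA. It is written by a complex in which METTL3 is the catalytic subunit and METTL14 helps to bind the RNA, and it is known to gather near stop codons and in long exons. ZNF genes mostly encode C2H2 zinc finger proteins, the largest family of human transcription factors. Many pair a row of fingers with a KRAB domain, which recruits the corepressor TRIM28, or with a SCAN domain, through which such proteins pair. In most of them the whole row of fingers is encoded by 1 long last exon. Many ZNF genes form a dense group on chromosome 19, and the genes described here are those spread over the other chromosomes. They include single regulators of chromatin and RNA as well as smaller clusters, for example on chromosomes 3, 7, 12 and 16.

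The lists hold positions, not RNA levels: a gene without a listed peak may carry little m6A or little RNA, and these cannot be told apart here. The fold enrichment of a peak is a linear ratio given by the authors, and so is its p-value. METTL14 itself carried 2 listed peaks in U2OS shMETTL14 cells, 5 in U2OS NC cells, 4 in 143B shMETTL14 cells and 1 in 143B NC cells. These peaks do not measure the knockdown. The knockdown and the identity of the lines were not checked here. The lists hold 29992 peaks in U2OS shMETTL14, 32353 in U2OS NC, 35195 in 143B shMETTL14 and 33082 in 143B NC cells.

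ZNF genes outside chromosome 19 were represented in each list by 147 to 165 genes. U2OS shMETTL14 cells had 825 peaks of 147 such genes, and U2OS NC cells had 876 peaks of 149. 143B shMETTL14 cells had 1039 peaks of 165 of them, and 143B NC cells had 853 peaks of 151. The numbers were thus lower in shMETTL14 than in NC cells of U2OS and higher in shMETTL14 than in NC cells of 143B. Places shared by isoforms appear in a list several times, so peaks that overlap within a list and strand were joined to sites. There were 326 sites in U2OS shMETTL14 against 358 in U2OS NC cells, a ratio of 0.911, and 400 sites in 143B shMETTL14 against 347 in 143B NC cells, a ratio of 1.15. The ratios over all genes were 0.925 in U2OS and 1.05 in 143B cells, on the same sides of 1, and the U2OS ratio of the ZNF genes is close to that of all genes. Of the 164 genes with a peak in U2OS, 44 had more sites in shMETTL14 than in NC cells, 63 had fewer and 57 had as many. Of the 173 genes with a peak in 143B, 73 had more sites in shMETTL14 cells, 39 had fewer and 61 had as many. These counts by gene were not made over all genes, whose site ratios lie on the same sides of 1. They are therefore not read as a trait of the ZNF genes.

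The peaks of these genes lay mostly within 1 exon. In U2OS shMETTL14 cells 89.7% of their peaks were in 1 spliced block (exact Clopper-Pearson interval at the 95% level 87.4 to 91.7%), against 59.5% of the peaks of all genes that are no ZNF gene. The shares were 89.4% against 60.4% in U2OS NC cells, 88.7% against 61% in 143B shMETTL14 cells and 90.3% against 64.5% in 143B NC cells. In none of the 4 lists did the intervals of the ZNF genes and of the other genes meet. All such intervals reflect counting error alone, and they assume independent peaks, although peaks of 1 gene are not. ZNF genes on chromosome 19 had the larger share in each list, from 92.3 to 97.6%. The median length of the transcripts behind the peaks was close to that of other genes in U2OS shMETTL14 cells, at 3268 against 3377 nucleotides.

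Most peaks lay in coding sequence. The part of the transcript is given as the lists label it, and overlapping peaks can carry different labels. Peaks wholly in coding sequence made up 63% of the peaks of ZNF genes outside chromosome 19 in U2OS shMETTL14, 61% in U2OS NC, 59.3% in 143B shMETTL14 and 62.3% in 143B NC cells. The shares of genes that are no ZNF gene were 53.7%, 53.2%, 49.5% and 49.9% in the same 4 lists. ZNF genes on chromosome 19 had 65.7%, 64.1%, 64.2% and 57.3%, so a high coding share is not particular to the genes outside it. Among the coding peaks of ZNF genes outside chromosome 19, 86 to 89.1% were in 1 spliced block, against 46 to 51.9% for genes that are no ZNF gene. Peaks across the stop codon made up 13.4 to 14.7% of the peaks of ZNF genes outside chromosome 19 and 15.8 to 16.9% of those of genes that are no ZNF gene. Peaks wholly in the 3′ UTR made up 19.6 to 24% and 22.4 to 25%.

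**Figure D1:**
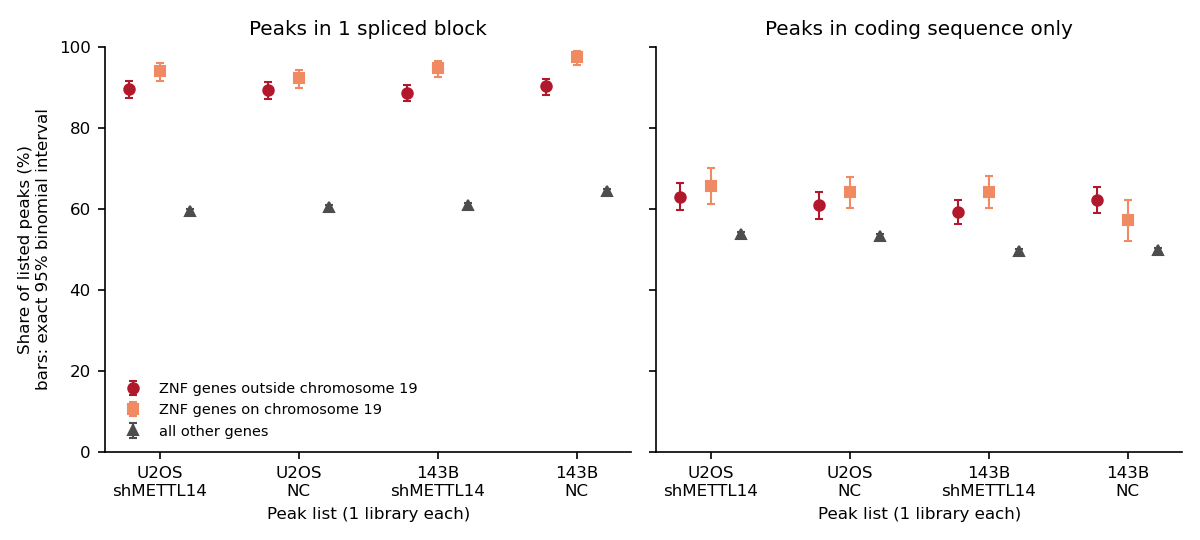
Share of listed peaks (%, vertical axis) that lie in 1 spliced block (left) and wholly in coding sequence (right) in each of the 4 lists, with exact 95% binomial intervals. ZNF genes outside chromosome 19 (circles) lie at 88.7 to 90.3% on the left, far above all other genes (triangles) and below ZNF genes on chromosome 19 (squares).

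These peaks had higher fold enrichments and weaker p-values than those of other genes. The median fold enrichment of a ZNF peak was 4.24 in U2OS shMETTL14, 4.38 in U2OS NC, 4.52 in 143B shMETTL14 and 4.96 in 143B NC cells, against medians of 3.5, 3.53, 3.54 and 3.76 for the other genes. Their median p-values were 6.17e-05, 2.04e-05, 1.23e-05 and 6.03e-05, against 1.86e-06, 2.57e-06, 3.98e-07 and 5.75e-06. When each list was divided into 4 equal parts by p-value, 9.61 to 13.1% of the ZNF peaks fell in the part with the lowest p-values and 27.4 to 33.8% in the part with the highest. ZNF genes on chromosome 19 were further along the same way, with 3.38 to 3.69% in the lowest and 45.5 to 54.9% in the highest.

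Many fold enrichments were values that several genes shared exactly, high ones more often than others. In 143B NC cells 136 ZNF peaks, or 15.9%, had a fold enrichment of at least 10, and 77.9% of these had a pair of fold enrichment and p-value that another gene of the list also had. The pair 17 and 0.000151 alone was listed for 11 of the ZNF genes in 143B NC cells, among them ZNF438, ZNF646, ZNF658 and ZNF684. The shares of such shared pairs were 86.6% in U2OS shMETTL14, 78.2% in U2OS NC and 69.4% in 143B shMETTL14 cells. For other genes at that fold they were 71.7%, 63.7%, 65.9% and 68% over the 4 lists. Among ZNF peaks under a fold of 10 the shares were 66.1%, 65.2%, 61.7% and 73.8%. For other genes under that fold they were 47.1%, 50.9%, 42.5% and 51.6%. Ties in the highest fold enrichment were thus common between genes.

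How the peaks met between shMETTL14 and NC cells was described by 2 counts. An shMETTL14 peak that no NC peak of the same line overlaps by at least 1 base of spliced sequence on the same strand is called gained, and an NC peak with no such shMETTL14 peak is called lost. Both words describe lists. In U2OS cells 218 of 825 shMETTL14 peaks of the ZNF genes were gained, or 26.4% (23.4 to 29.6%), where 20.9% of all shMETTL14 peaks were. Of 876 NC peaks 271 were lost, or 30.9% (27.9 to 34.1%), where 26.9% of all NC peaks were. In 143B cells 362 of 1039 shMETTL14 peaks were gained, or 34.8% (31.9 to 37.8%), where 27.3% of all were. Of 853 NC peaks 151 were lost, or 17.7% (15.2 to 20.4%), where 20.7% of all were. In 3 of the 4 comparisons the share lay above that of all peaks, and the share lost in 143B cells lay below it.

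Because ZNF peaks have weaker p-values, the shares were set beside those of other genes with the same mixture of p-values. Other genes' shares in 10 equal parts of the list by p-value, weighted by where the ZNF peaks fall, gave 28.7% gained and 31.6% lost in U2OS cells. Both values lie within the intervals of the ZNF genes given above. In 143B cells the weighted share was 33.9% gained, which is also within the interval, and 27% lost, which is above it. In the comparison of 143B NC peaks the ZNF genes thus kept a larger part of their peaks than the weighted other genes. ZNF genes on chromosome 19 had 29.6% gained against a weighted 37.4% and 47.7% lost against 44.3% in U2OS cells, and 48.5% gained against 42.7% and 24.8% lost against 35.1% in 143B cells.

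No ZNF peak in the first of the 4 parts of its list, that with the lowest p-values, was gained or lost. This held for 0 of 108 peaks in U2OS shMETTL14, which allows a share of up to 2.78%, and for 0 of 112 in U2OS NC cells, which allows up to 2.68%. It held for 0 of 131 peaks in 143B shMETTL14, with a limit of 2.29%, and for 0 of 82 in 143B NC cells, with a limit of 3.66%. Each limit is 3 peaks over the number of peaks counted. Over all genes the shares in this part were 0.198% gained and 0.408% lost in U2OS cells. In 143B cells they were 0.42% gained and 0.493% lost, so the counts of 0 are near the shares of all genes. In the part with the highest p-values the shares of the ZNF genes were 53.4% gained and 62.9% lost in U2OS cells. In 143B cells these genes had 61.9% gained and 39.6% lost there. For other genes they were 51.4%, 59.8%, 60.1% and 49.6%. The part of the lists where the ZNF genes stood furthest from other genes was the third part of the 143B NC list, with 38 of 293 peaks lost, or 13% (9.34 to 17.4%), against 26.9%.

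**Figure D2:**
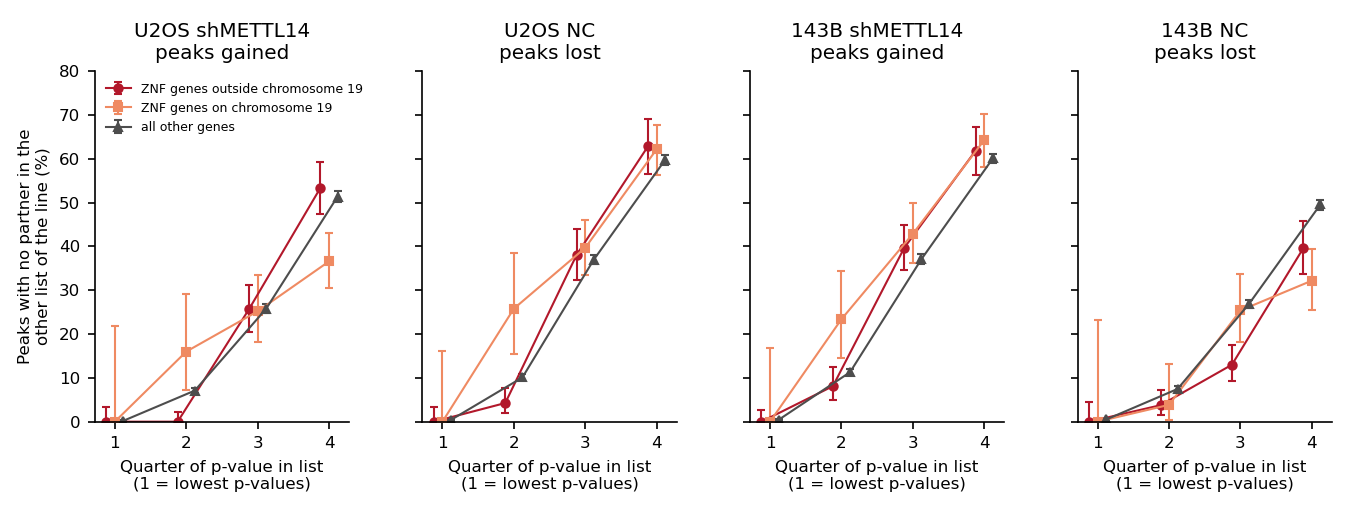
Share of peaks with no partner in the other list of the same line (%, vertical axis) by 4 equal parts of the list ordered by p-value (horizontal axis, 1 holds the lowest p-values), with exact 95% binomial intervals, for ZNF genes outside chromosome 19 (circles), on chromosome 19 (squares) and all other genes (triangles). All curves rise from near 0 to between 32.2 and 64.3%, and in the panel of 143B NC peaks the ZNF genes lie below the other genes in the third and last part.

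Peaks across the stop codon were without a partner less often than coding and 3′ UTR peaks. Start codon and 5′ UTR peaks were too few to place, with at most 25 of either kind in a list. Among ZNF genes outside chromosome 19, 14.4% of the stop codon peaks were gained (8.62 to 22.1%, 118 peaks) and 12% lost (6.7 to 19.3%, 117 peaks) in U2OS cells. In 143B cells 15.3% were gained (9.83 to 22.2%, 144 peaks) and 8% lost (3.9 to 14.2%, 125 peaks). Coding peaks had 28.3% gained and 32.6% lost in U2OS cells and 34.3% gained and 17.3% lost in 143B cells. Peaks in the 3′ UTR had 31.1% gained and 40.8% lost in U2OS cells and 50.2% gained and 21.6% lost in 143B cells. For other genes the stop codon peaks were at 8.92% gained and 11.2% lost in U2OS cells and 10.2% gained and 8.8% lost in 143B cells, likewise below their coding peaks, at 20.7%, 26.7%, 27% and 19.7%.

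Joining the peaks of all 4 lists gave 570 sites in the 193 genes, of the 18714 such sites in all genes. All 4 lists held 150 of them, or 26.3%, against 30.5% for genes that are no ZNF gene and 15.9% for ZNF genes on chromosome 19. A further 72 sites were in 3 lists, 113 in 2 lists and 235 in 1 list. Sites of a single list were most numerous in 143B shMETTL14 cells, with 77, followed by 68 in U2OS NC, 49 in 143B NC and 41 in U2OS shMETTL14 cells. Over all genes the sites of a single list made up 12.3%, 9.17%, 10.3% and 6.03% of the joint sites in the same order, against 13.5%, 11.9%, 8.6% and 7.19% for the ZNF genes. Both 143B lists alone held 42 sites and both U2OS lists alone held 22, while both shMETTL14 lists alone held 15 and both NC lists alone held 11. The 42 and 22 sites are 7.37% and 3.86% of the ZNF sites, close to the 7.26% and 4.33% of all genes.

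**Figure D3:**
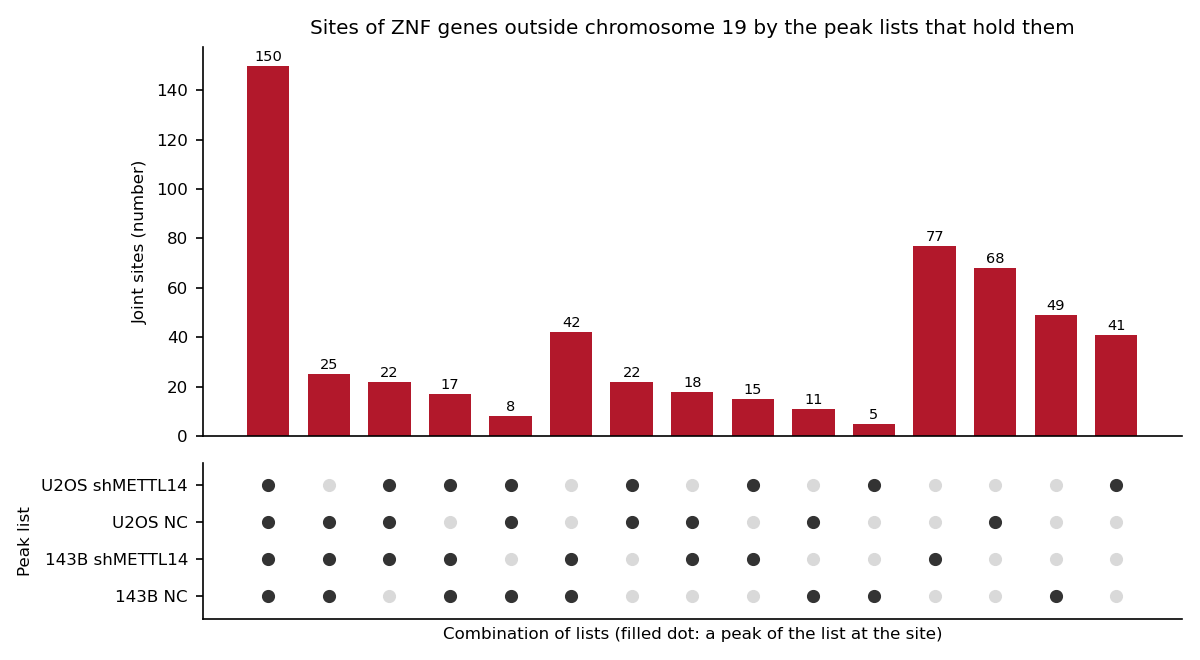
Number of joint sites of the 193 ZNF genes outside chromosome 19 (vertical axis) for each combination of lists that holds them (filled dots below). The tallest bar is the 150 sites in all 4 lists, and 15 sites are in both shMETTL14 lists alone against 11 in both NC lists alone.

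Sites that behaved alike in both lines were few. Of the 204 ZNF sites held by both shMETTL14 lists, 15 were in neither NC list, or 7.35% (4.17 to 11.8%), where 5.72% of such sites of all genes were. Of the 194 ZNF sites held by both NC lists, 11 were in neither shMETTL14 list, or 5.67% (2.86 to 9.92%), where 5.07% of all were. Both shares are near those of all genes. Counted by gene, 108 of the 193 had a peak in all 4 lists, or 56%, against 51% of all genes and 36.2% of ZNF genes on chromosome 19.

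The share of ZNF genes with peaks in 1 list of a line alone was apart from that of all genes for 143B NC cells, and in the other 3 comparisons its interval held the share of all genes. In U2OS cells 15 of the 147 ZNF genes with an shMETTL14 peak had no NC peak, or 10.2% (5.82 to 16.3%), where 12.4% of all genes had none. Of the 149 with an NC peak 17 had no shMETTL14 peak, or 11.4% (6.79 to 17.6%), where 16.9% of all genes had none. In 143B cells 22 of 165 genes had shMETTL14 peaks only, or 13.3% (8.55 to 19.5%), where 15.5% of all genes did. NC peaks only were listed for 8 of 151, or 5.3% (2.31 to 10.2%), where 11.8% of all genes had them only. ZNF genes on chromosome 19 had 4 of 85 there, or 4.71% (1.3 to 11.6%). The low share is thus not particular to the genes outside chromosome 19. The genes described here carry more sites each than other genes, at 2.22 to 2.42 per list against 1.77 to 1.85.

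The number of joint sites per gene ran from 1 to 10 with a median of 2. There was 1 site in 42 genes, and 29 genes had at least 5. Over the 193 genes the number of sites and the length of the longest listed transcript had a Spearman rho of 0.435, and over 8405 genes that are no ZNF gene it was 0.464. Both are descriptions across genes, whose values share the same 4 libraries.

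The genes with most sites in all 4 lists were ZNF609, with 5, and ZNF148, ZNF292 and ZNF37A, with 4 each. ZNF638 and ZNF711, with 3, share their place with 5 other genes, ZNF106, ZNF189, ZNF445, ZNF462 and ZNF623, and were taken for the lowest p-value they reach in any list. ZNF609, a chromatin factor also known for a circular RNA made from its first coding exon, had 9 sites in U2OS shMETTL14, 6 in U2OS NC, 9 in 143B shMETTL14 and 8 in 143B NC cells. Its peak at the start codon had a p-value of 1.58e-21, 2e-27, 2e-36 and 1.26e-29 in these lists, and its fold enrichment there was 5.19, 5.62, 8.14 and 9.2. In U2OS shMETTL14 cells this peak was 1 block of 869 bases at chr15:64791545-64792413 (hg19). Its 3′ UTR peak at chr15:64973983-64974402 in U2OS shMETTL14 cells was at the same coordinates in U2OS NC cells.

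ZNF638, a nuclear protein that binds RNA and takes part in silencing of unintegrated retroviral DNA, had the lowest p-values of these 6 genes in each list. Its lowest p-value was 1.26e-61 in U2OS shMETTL14, 1.26e-66 in U2OS NC, 1.58e-73 in 143B shMETTL14 and 3.98e-38 in 143B NC cells. Its peaks covered 4171, 3956, 3599 and 2946 bases of spliced sequence. Of its 22 peaks in U2OS shMETTL14 and 29 in U2OS NC cells none was unmatched, and in 143B cells 5 of 24 shMETTL14 peaks and 0 of 31 NC peaks were. A single place, from position 71650137 to 71650887 on chromosome 2 in 143B NC cells, had a fold enrichment of 9.3.

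ZNF711, an X-linked regulator mutated in intellectual disability, had a coding peak at chrX:84525737-84526094 in U2OS shMETTL14 cells with a fold enrichment of 5.15. The overlapping peaks had 9.72 in U2OS NC, 6.69 in 143B shMETTL14 and 8.06 in 143B NC cells. A second place, across its stop codon, was likewise in all lists. ZNF148, a factor that binds GC-rich promoters, had 6, 6, 4 and 4 sites, and 1 of its 25 peaks in U2OS shMETTL14 cells was unmatched, the only one of the gene between the hairpins. ZNF292, a gene of neurodevelopmental disorders, had 6, 7, 8 and 5 sites. ZNF37A had 7, 8, 8 and 8 sites, and its peak with the lowest p-value was in the 3′ UTR in U2OS NC cells, at chr10:38411020-38412037. By fold enrichment other 3′ UTR peaks of ZNF37A stood higher, with 19.3 in U2OS NC cells against 13.5 there. It is a KRAB gene with close relatives near the centromere of chromosome 10, so its reads may be split among them.

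**Figure D4:**
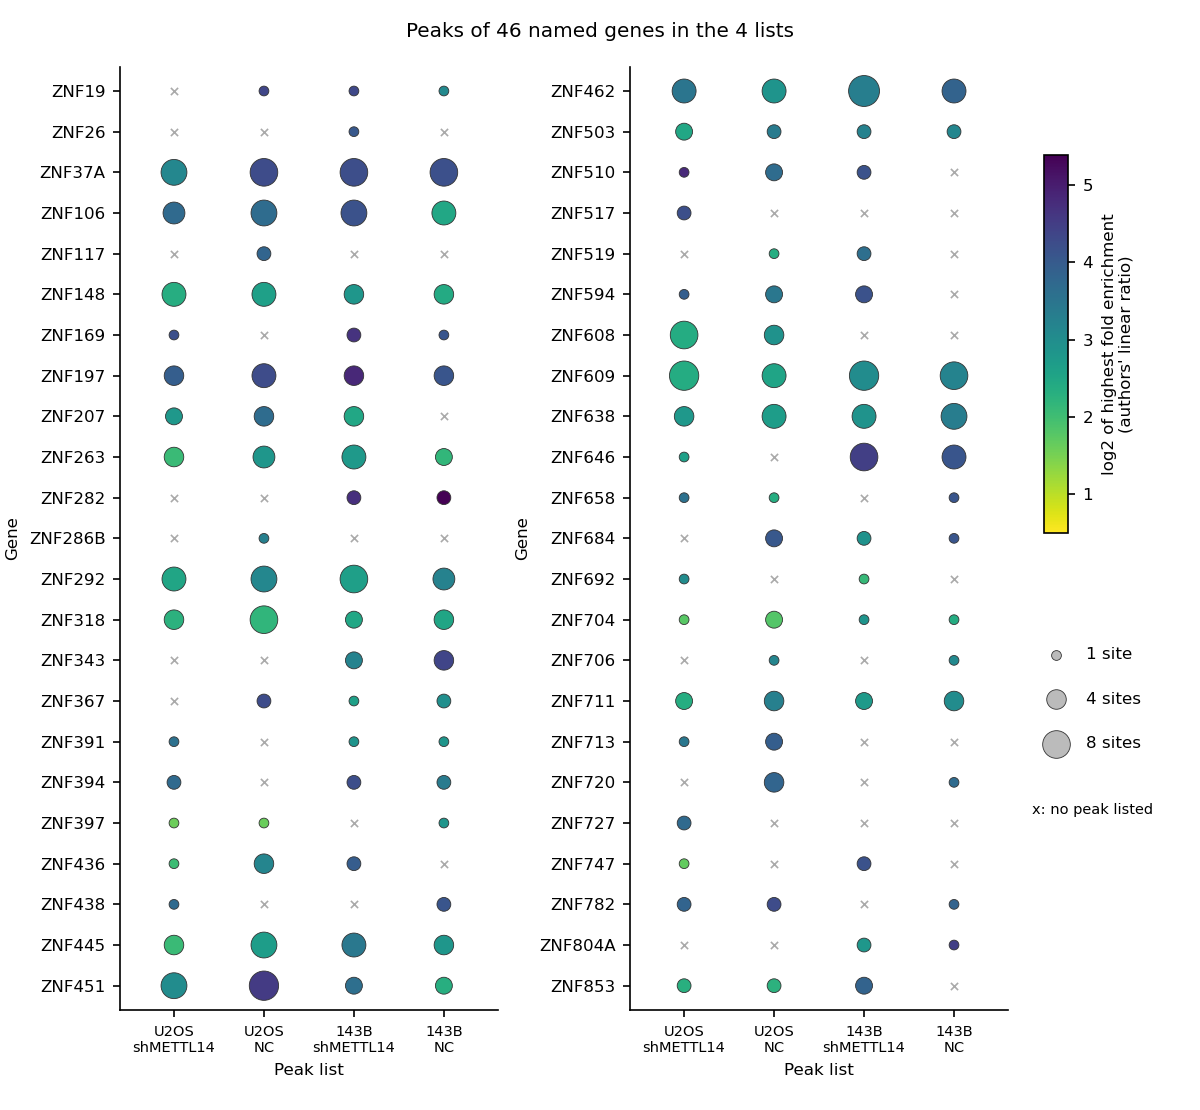
Peaks of the named ZNF genes (rows) in the 4 lists (columns). The area of a circle is the number of sites, its colour the log2 of the highest fold enrichment the authors give for the gene in the list, and a cross marks a gene with no listed peak. ZNF608 has circles in both U2OS lists and crosses in both 143B lists, and ZNF282, ZNF343 and ZNF804A have the reverse.

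Genes that were in both NC lists and in neither shMETTL14 list were ZNF706 and ZNF720. ZNF720 (now KRABD5, a gene with a KRAB domain) had 4 NC peaks in U2OS and 1 in 143B cells. Its U2OS peak with the highest fold enrichment, 14.1, lay in coding sequence at chr16:31766645-31766823, and its 143B peak, with 13, at chr16:31766556-31766615. These 2 peaks are close neighbours that do not overlap. ZNF706 had 1 NC peak in each line, in the 3′ UTR in U2OS cells with a fold enrichment of 8.99 and a p-value of 4.37e-05, and in the 5′ UTR in 143B cells with 8.48 and 0.000589. No place in either gene was thus lost in both lines.

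Genes that were in both shMETTL14 lists and in neither NC list were ZNF692 and ZNF747. ZNF692, a repressor of gluconeogenic genes, had 3 shMETTL14 peaks in each line, which are 1 place listed for 3 isoforms. The place lay in the 3′ UTR at chr1:249144235-249144353 in U2OS cells, with a fold enrichment of 8.17 and a p-value of 0.000646. In 143B cells it lay at chr1:249144205-249144355, with 4.16 and 1.02e-06. This was the same place in both lines. ZNF747 had 1 peak in U2OS shMETTL14 cells, with 3.17, and 4 in 143B shMETTL14 cells, with up to 17.7. A 143B peak of ZNF747 is listed across an intron that reaches into ZNF768, and there it overlaps NC peaks of ZNF768.

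ZNF438 and ZNF519 went opposite ways in the lines. ZNF438, a transcriptional repressor, had 9 peaks in U2OS shMETTL14, 0 in U2OS NC, 0 in 143B shMETTL14 and 17 in 143B NC cells. Its U2OS peak at chr10:31137987-31138226 had a fold enrichment of 13.1 and a p-value of 6.03e-05. A 143B NC peak at chr10:31137990-31138140 overlapped it, with 17 and 0.000151. The many peaks are few places, 1 site in U2OS and 2 in 143B cells, listed for many isoforms. ZNF519 had 0 peaks in U2OS shMETTL14, 1 in U2OS NC, 2 in 143B shMETTL14 and 0 in 143B NC cells, with fold enrichments of up to 12.2 and no p-value under 0.000288.

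Other genes whose peaks were in 1 list of a line were mostly held by 1 or 2 sites. In U2OS cells those with shMETTL14 peaks only and the highest fold enrichment were ZNF169, ZNF391, ZNF394, ZNF438, ZNF517 and ZNF727, with values of 12 to 18.5. Of these ZNF517 and ZNF727 had no peak in either 143B list, with 2 sites each in U2OS shMETTL14 cells. ZNF169 had a peak at chr9:97063257-97063467 in U2OS shMETTL14 cells, with 18.5, and overlapping peaks with 25.5 in 143B shMETTL14 and 17 in 143B NC cells. The place missing from the U2OS NC list was thus held by the other 3.

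With NC peaks only in U2OS cells stood ZNF19, ZNF117, ZNF286B, ZNF367, ZNF684 and ZNF720, with highest values of 9.63 to 20.5. ZNF367, a nuclear factor found in erythroid cells, had a coding peak at chr9:99180013-99180282 in U2OS NC cells with a fold enrichment of 19.3. It was listed in 143B shMETTL14 cells with 6.21 and in 143B NC cells with 7.83. ZNF684 had 3 sites in U2OS NC cells, 2 in 143B shMETTL14 and 1 in 143B NC cells. ZNF286B is a near copy of ZNF286A, and its 2 peaks may hold reads of that gene.

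In 143B cells the genes with shMETTL14 peaks only and the highest values were ZNF26, ZNF436, ZNF510, ZNF594, ZNF747 and ZNF853, with 14.4 to 17.7. ZNF26 had 1 peak, on the unplaced contig GL000223.1, where copies of a gene can share reads. ZNF510 had its highest value, 28.3 with a p-value of 6.61e-08, across the stop codon in U2OS shMETTL14 cells, and 17.7 in 143B shMETTL14 cells at another place. With NC peaks only stood ZNF397, ZNF438, ZNF658, ZNF706, ZNF720 and ZNF782, with 7.17 to 17. None of these 6 had an NC p-value under 0.000151 in 143B cells.

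Some genes had peaks in 1 line alone. ZNF608, the close relative of ZNF609 and a regulator of thymocyte gene expression in mice, had 22 peaks in U2OS shMETTL14 and 10 in U2OS NC cells and none in either 143B list. None of these peaks was unmatched in U2OS cells. Its 8 sites in shMETTL14 cells covered 3161 bases and its 4 sites in NC cells covered 3830. The shMETTL14 list held 3 coding peaks of 659, 240 and 151 bases over a stretch where the NC list held 1 peak of 1616 bases, at chr5:123983126-123984741. A higher number of sites in shMETTL14 cells thus went with a smaller covered length.

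ZNF282, first described as a protein that binds a retroviral repeat, had the opposite pattern, with no peak in U2OS cells. Its highest fold enrichment was 26.6 in 143B shMETTL14 and 41.7 in 143B NC cells. The NC peak with 41.7 was listed across the stop codon with a p-value of 3.98e-11, and the overlapping shMETTL14 peak with 26.6 was listed as coding. ZNF343 had no U2OS peak, 3 sites in 143B shMETTL14 and 4 in 143B NC cells. ZNF804A, a gene with a variant linked to schizophrenia, had no U2OS peak, 2 sites in 143B shMETTL14 cells and 1 in 143B NC cells with a fold enrichment of 22.2. ZNF646 had 1 site in U2OS shMETTL14, 0 in U2OS NC, 8 in 143B shMETTL14 and 6 in 143B NC cells. Among genes with U2OS NC but no 143B NC peak, ZNF713 had 1 site in U2OS shMETTL14 and 3 in U2OS NC cells and no 143B peak.

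Among the 193 ZNF genes outside chromosome 19, 12 had peaks in both U2OS lists alone (6.22%) and 17 in both 143B lists alone (8.81%). The shares of all genes with these patterns were not counted. Genes with peaks in any 2 of the lists alone made up 18.1% of these ZNF genes and 17.7% of all genes. The 12 include ZNF140, ZNF334, ZNF608 and ZNF713, and the 17 include ZNF282, ZNF343, ZNF777 and ZNF804A. Of the 853 ZNF peaks of 143B NC cells 288 had no U2OS NC partner, or 33.8%, where 31.4% of all peaks had none. Of the 876 of U2OS NC cells 321 had no 143B NC partner, or 36.6%, where 30.2% had none. The shares weighted by p-value were 38.8% and 34.3%. Unlike between hairpins, ZNF peaks of the lowest part of p-values could be without a partner. In 143B NC cells these were 2 of 82, or 2.44% (0.297 to 8.53%), where 5.23% of all peaks of that part had none. In U2OS NC cells they were 8 of 112, or 7.14% (3.13 to 13.6%), where 3.79% of all had none. Both intervals hold the share of all peaks.

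Some clusters of neighbouring ZNF genes had different numbers of sites in the lines and others did not. With gaps of up to 500000 bases allowed, 57 of the 191 genes placed on chromosomes fell into 9 clusters of at least 4. The 9 genes at chr7:148767214-149545476 (ZNF786, ZNF398, ZNF282, ZNF212, ZNF783, ZNF777, ZNF746, ZNF467 and ZNF862) had 4 sites in U2OS shMETTL14, 2 in U2OS NC, 10 in 143B shMETTL14 and 9 in 143B NC cells. They were represented by 3, 1, 7 and 7 genes, and none was in all 4 lists. The 9 genes at chr16:30408765-31094981 had 15, 9, 28 and 19 sites, more in shMETTL14 than in NC cells of each line. Other clusters were more even or went the other way: over the same 4 lists, that on chromosome 12 had 13, 12, 11 and 7 sites, that on chromosome 3 had 15, 19, 16 and 13, and that on chromosome 5 had 8, 8, 4 and 6. On chromosome 16 as a whole 26 of the ZNF genes had 39 sites in U2OS shMETTL14, 35 in U2OS NC, 63 in 143B shMETTL14 and 46 in 143B NC cells. Genes that are no ZNF gene had 482, 513, 566 and 576 sites there, likewise more in 143B than in U2OS cells. On chromosome 5 the ZNF genes had fewer in 143B cells, with 20, 16, 6 and 8 sites, and 8 and 4 of the U2OS sites belonged to ZNF608. Genes that are no ZNF gene had 539, 609, 661 and 621 sites on chromosome 5. Sites of other genes within the clusters were not counted.

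Genes that act in chromatin and with corepressors were present in nearly all lists. The list holds 17 genes, such as ZNF217, an oncogene of breast cancer, and ZNF644, a partner of the histone methyltransferases G9a and GLP, and all 17 had a peak, 15 of them in all 4 lists. In U2OS cells 9 of their 126 shMETTL14 peaks were gained, or 7.14% (3.32 to 13.1%), and 31 of 138 NC peaks were lost, or 22.5% (15.8 to 30.3%), where all peaks had 20.9% gained and 26.9% lost. In 143B cells 48 of 165 were gained, or 29.1% (22.3 to 36.7%), and 18 of 127 lost, or 14.2% (8.62 to 21.5%), where all peaks had 27.3% and 20.7%. Of the 4 intervals only that of U2OS gained lies apart from the share of all peaks. Over sites 4 of 51 were gained there, where 24.9% of the sites of all genes were. ZNF318, known in mice for the splicing of immunoglobulin D, had 4 sites in U2OS shMETTL14 against 8 in U2OS NC cells, and 3 in 143B shMETTL14 against 4 in 143B NC cells. ZNF462, which has the most joint sites of all, had 6, 6, 10 and 6 sites, and 13 of its 26 peaks in 143B shMETTL14 cells were gained.

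Factors of RNA, ribosome, SUMO and spindle had few lost peaks in 143B cells. Of 12 genes listed 11 had a peak. In U2OS cells 13 of 79 shMETTL14 peaks were gained, or 16.5% (9.06 to 26.5%), and 18 of 98 NC peaks lost, or 18.4% (11.3 to 27.5%), and both intervals hold the shares of all peaks, 20.9% and 26.9%. In 143B cells 34 of 96 were gained, or 35.4% (25.9 to 45.8%), which holds the 27.3% of all peaks. Of 76 NC peaks 3 were lost there, or 3.95% (0.822 to 11.1%), below the 20.7% of all peaks. ZNF638 held 31 and ZNF106 21 of these 76 peaks, so they are not independent. Over sites 2 of 24 were lost, where 24.6% of the sites of all genes were. No interval was made over sites, so a departure is not shown by them. ZNF207 (BuGZ), a protein of kinetochores and spindle assembly, made up 18 of the 34 gained in 143B cells. It had 11 peaks in U2OS shMETTL14, 17 in U2OS NC, 18 in 143B shMETTL14 and 0 in 143B NC cells. Its coding peaks were weak, with fold enrichments of 1.34 to 1.89. ZNF451, a SUMO ligase, had 7, 9, 3 and 3 sites, and a coding peak from position 57012337 to 57012724 on chromosome 6 in U2OS shMETTL14 cells was met in all lists. ZNF106, an RNA-binding protein needed for motor neuron health in mice, had 5, 7, 7 and 6 sites.

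Genes of the SCAN family had larger shares without a partner than the other 3 lists in each comparison, of which the developmental one holds few peaks. Of the 24 symbols listed 13 had a peak. A gene that the peak lists name otherwise than by ZNF and a number would not be found, so the rest are not shown to lack peaks. In U2OS cells 17 of 56 shMETTL14 peaks were gained, or 30.4% (18.8 to 44.1%), and 25 of 63 NC peaks lost, or 39.7% (27.6 to 52.8%). In 143B cells 41 of 77 were gained, or 53.2% (41.5 to 64.7%), and 25 of 59 lost, or 42.4% (29.6 to 55.9%). The intervals in 143B cells lie above the shares of all peaks, 27.3% and 20.7%. They count copies of 1 place as independent peaks, and ZNF202 held 10 of the 25 lost. Over sites 18 of 34 were gained and 11 of 29 lost, where 32% and 24.6% of the sites of all genes were. No interval over sites and no weighting by p-value was made for the 4 lists. In U2OS cells the interval of gained peaks holds the 20.9% of all peaks, and that of lost peaks begins just above their 26.9%. ZNF445, which keeps imprinted genes methylated, had 4, 7, 6 and 4 sites, of which 3 places were in all lists. ZNF263 had 4, 5, 6 and 3 sites and ZNF197 had 4, 6, 4 and 4.

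Developmental regulators were few: 5 of 10 listed genes had a peak outside chromosome 19, where alone they were looked for. In U2OS cells 0 of 30 shMETTL14 peaks were gained (0 to 11.6%), where 20.9% of all peaks were. ZNF608 alone held 22 of these 30 peaks, so they are not independent. Over sites 0 of 14 were gained, where 24.9% of the sites of all genes were, and no interval was made over sites. Of 19 U2OS NC peaks 2 were lost, or 10.5% (1.3 to 33.1%), where 26.9% of all peaks were. In 143B cells 3 of 9 were gained, or 33.3% (7.49 to 70.1%), and 2 of 9 lost, or 22.2% (2.81 to 60%), intervals that hold the 27.3% and 20.7% of all peaks. ZNF503, a regulator of striatal development in mice, had 2 places in all lists. At its stop codon U2OS shMETTL14 cells had 2 peaks, of 240 and 360 bases with p-values of 3.72e-08 and 5.01e-11, where U2OS NC cells had 1 peak of 1046 bases with 1e-61. In 143B cells the p-values there were 1.58e-14 for a peak of 449 bases in shMETTL14 and 4.9e-07 for 419 bases in NC cells. ZNF704 had 1, 3, 1 and 1 sites with no p-value under 1.55e-05.

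**Figure D5:**
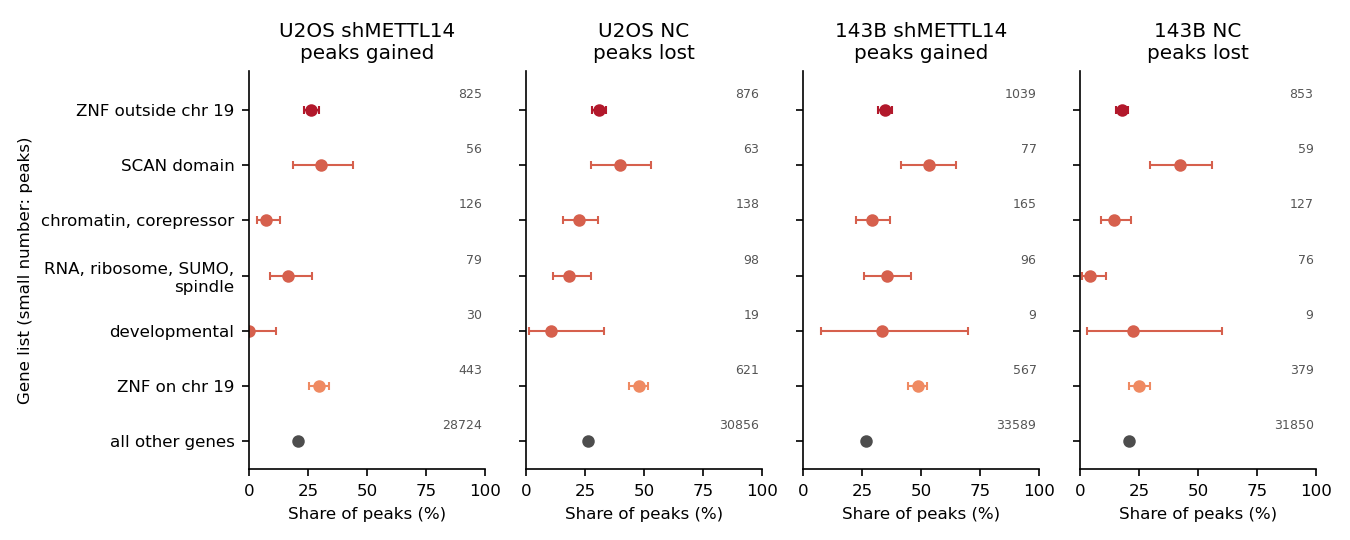
Share of peaks gained or lost (%, horizontal axis) with exact 95% binomial intervals for ZNF genes outside chromosome 19, 4 lists of them, ZNF genes on chromosome 19 and all other genes; small numbers are peaks. The chromatin list lies at 7.14% gained in U2OS cells, and the SCAN list at 53.2% gained and 42.4% lost in 143B cells.

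The total length under peaks differed the same way as the number of sites. The ZNF peaks covered 81029 bases in U2OS shMETTL14 against 99990 in U2OS NC cells, and 118702 in 143B shMETTL14 against 86521 in 143B NC cells. This is 249 bases per site against 279 in U2OS cells and 297 against 249 in 143B cells. For genes that are no ZNF gene it was 295 against 298 in U2OS cells and 330 against 296 in 143B cells.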

How the data were processed

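Of the 8 libraries, 4 are inputs of U2OS and 143B cells and enter only through the 4 peak lists, 1 per immunoprecipitated library. The submitters' processing notes name FastQC 0.11.5, Trimmomatic, HISAT2 and the build hg19 (GRCh37). Peak caller, threshold, annotation and read depth: not given in the sources used here. Per the file headers, each peak has a p-value and a fold enrichment, a linear ratio, both deposited by the authors, with its spliced blocks, the transcript's length and the part of the transcript. They were used to describe and rank peaks within a list. Counts were not used here, the depth of each peak is therefore unknown, and intervals cover counting error only. Coordinates are printed from 1 on hg19.

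Groups came from the labels. Peaks overlapping by 1 bp or more of spliced blocks on 1 strand were matched or joined with Python 3.11.15, pandas 2.3.3, numpy 2.4.6 and scipy 1.17.1, and the overlap was tested on simulated data. No test was made across conditions. Named genes are the 6 with most sites in all lists; per line the 6 with peaks in 1 list alone and the highest fold enrichment; those alike or opposite in both lines; 4 per NC list absent from the other; and up to 3 per gene list with most sites. The genes, lists and rules were chosen with earlier results of these data known. Of the 193 symbols, 191 are current in RefSeq and 2 are older (ZNF259 is ZPR1, ZNF720 is KRABD5). On contigs lie 6 peaks, all in 143B shMETTL14 cells. A list of KRAB genes and protein features was planned and not run, as no protein table was used here. Sequences are not printed, since no hg19 genome was used here.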

Additional observations from a re-analysis of the deposited data

Results flagged for a closer look

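The number of ZNF sites in shMETTL14 cells over that in NC cells was 0.911 in U2OS and 1.15 in 143B cells, so the lines lie on opposite sides of 1. The ratios over all genes, 0.925 in U2OS and 1.05 in 143B cells, lie on the same sides. ZNF438 had 9 peaks in U2OS shMETTL14 and 0 in U2OS NC cells, and 0 in 143B shMETTL14 and 17 in 143B NC cells. ZNF519 had 0 and 1 in U2OS shMETTL14 and NC cells, and 2 and 0 in 143B shMETTL14 and NC cells. Each was picked out because 1 line moved one way and the other line the opposite way. With 1 list per group, none of these differences was tested.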

How the results depend on the processing

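No paired analysis was possible because each group has 1 library and no result comes from a test. The site ratios kept their side of 1 under each alternative run. The shares moved with the overlap that counts as shared and with the peaks used. Against 26.4%, U2OS gained was 39.5% for peaks at or above the list's median fold enrichment, 9.54% at or below the NC list's median p-value, 31.8% with an overlap of 50% of the shorter peak, 51.9% with 50% of each and 22.9% within 100 bp. Against 30.9%, U2OS lost was 40.6%, 26.2%, 35.3%, 52.4% and 26.9% in the same order, and 38.5% over sites. Against 34.8%, 143B gained was 38%, 46.8%, 38.1%, 54.8% and 30.5%. Against 17.7%, 143B lost was 27.1%, 10.8%, 22.6%, 44.1% and 14.4%, and 22.8% over sites. For all peaks at or below the median p-value, the shares were 15.2% gained and 18.9% lost in U2OS cells and 27.7% gained and 12.2% lost in 143B cells, so U2OS gained turned to below the share of all peaks there and 143B gained lay further above it. At or above the median fold enrichment all peaks had 38.2% gained in 143B cells, so the excess of the ZNF genes was gone. With 50% of each peak, 143B lost turned to above the 39.5% of all peaks. 143B NC peaks with no U2OS NC partner were 44.2% by fold enrichment, 38.6% over sites, 37.4% and 57.9% with 50% overlaps and 29.5% within 100 bp. U2OS NC peaks with no 143B NC partner were 48.1% by p-value, 41.3% over sites, 57.6% with 50% of each peak and 33% within 100 bp. The 143B site ratio was 1.63 at or below the median p-value. The coding share was 58.3%, 55%, 55% and 55.9% over sites, and 59%, 57.3% and 55.1% by fold enrichment in U2OS shMETTL14, U2OS NC and 143B shMETTL14 cells. Sites in all 4 lists were 31.6% with peaks within 200 bp joined and 22.5% by p-value. The causes were not tested. Leaving out contigs or asking for a partner of the same gene, both added after the data were seen, moved no such share beyond its interval. Of 132 peak counts of named genes, 55 moved with 50% of each peak, 22 with 50% of the shorter, 5 within 100 bp and 0 by span. The planned KRAB and finger-count alternatives were not run.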
